A study of Danio rerio with 6 samples.

Results

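Crystallins are the structural proteins that fill the fibre cells of the eye lens. The transcripts described here are all genes of the deposited table whose symbol begins with cry followed by a, b or g, a pattern that takes in the alpha, beta and gamma crystallins and leaves out the cryptochromes. It selected 53 of the 14781 genes: 3 alpha, 12 beta, 32 gamma M (symbols beginning with crygm) and 6 other gamma crystallins. The RNA came from whole eyes of zebrafish larvae 5 days after fertilization. The 3 samd7-/- larvae were homozygous for the stl888 allele of samd7, a gene for a Polycomb-group protein made in photoreceptors, and the 3 wild-type (WT) larvae came from the same kind of cross between heterozygotes. Each library held the eyes of 1 larva, dissected after genotyping of the rest of the body, and the mutation was present in all cells rather than in the lens alone.

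Lens fibre cells make crystallins in such amounts that the proteins give the lens its refractive power, and the fibres later lose their nuclei and organelles, so the proteins must last. Alpha crystallins belong to the small heat shock proteins and act as chaperones that keep other proteins from aggregating. Beta and gamma crystallins share a fold built from Greek key motifs. Beta crystallins assemble into oligomers, while gamma crystallins stay monomeric. The gamma M crystallins are a methionine-rich branch found in fish and other aquatic vertebrates, whose lenses are hard and densely packed with protein.

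The libraries held 23550042, 23252010 and 23185755 reads assigned to genes in samd7-/- larvae, and 26672265, 23387568 and 26020445 in WT larvae. Levels are given as normalized counts, which are read counts divided by 1 size factor per library. A log2 fold change is the mean log2(value + 1) of samd7-/- minus that of WT, from a limma fit over the 11959 genes that reached 10 normalized counts in 3 or more libraries, and adjusted p-values are taken over all of these genes. Transcripts of samd7 were more abundant in the mutants (log2 fold change 1.31, SE 0.12, adjusted p = 0.0049), so its level does not by itself check the genotype labels. The tissue label fitted the markers: crx of photoreceptors, rpe65a of the pigment epithelium and the lens aquaporin genes mipa and mipb were present in all 6 libraries.

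Crystallin transcripts made up a large part of each eye library. They took 13.7, 17.4 and 12.7% of the reads in the samd7-/- larvae, against 15.3, 23.6 and 20.3% in the WT larvae. The mutant mean was 14.6 ± 2.49% and the WT mean 19.7 ± 4.18% (SD, n = 3 each). The ranges overlapped, because the second samd7-/- larva lay above the first WT larva, and the difference did not pass an exact permutation test (two-sided p = 0.2, adjusted p = 0.25 over the 5 shares tested), a test that cannot give a p under 0.1 with 3 larvae against 3. A share of whole-eye RNA depends on the amount of lens in the library, on crystallin RNA per lens cell and on other RNA. These cannot be told apart here.

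Beta and gamma M crystallins supplied nearly all of these reads. Summed normalized counts of the 12 beta genes were 1613242, 2151972 and 1428255 in samd7-/- larvae, against 1804521, 3244350 and 2565405 in WT larvae. The mutant mean was 0.682 of the WT mean, with overlapping ranges (exact permutation p = 0.2). For the 32 gamma M genes the sums were 1395513, 1737010 and 1322830 in samd7-/- larvae, against 1915761, 2615739 and 2032911 in WT larvae. Every mutant lay below every WT larva in the gamma M sum, at a ratio of 0.679, close to that of the beta sum. Its p, not adjusted for the several sums tested, was the smallest this design allows (exact permutation p = 0.1). For the gamma M share of library reads, the exact permutation p adjusted over the shares tested was 0.25. The 6 other gamma genes summed to 155616, 200204 and 119876 in samd7-/- larvae and to 175522, 268464 and 235960 in WT larvae, a ratio of 0.700 with overlap (exact permutation p = 0.2). The alpha genes were a trace beside them, with sums of 531, 554 and 395 in samd7-/- larvae and 451, 981 and 650 in WT larvae (ratio 0.711, exact permutation p = 0.3).

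**Figure D1:**
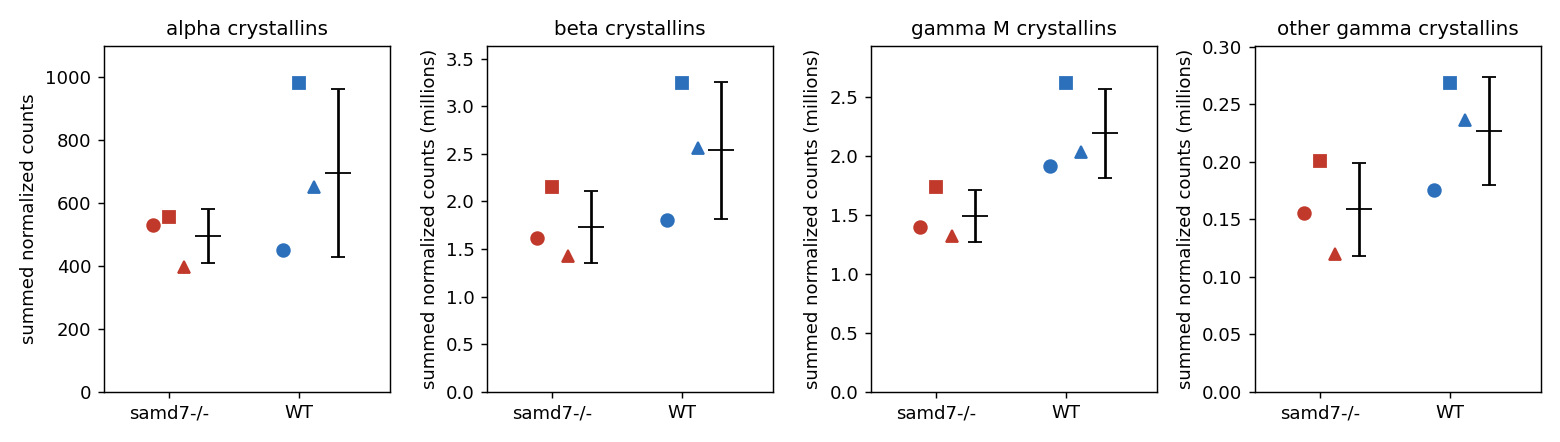
Summed normalized counts of each crystallin group (vertical axes, scaled as each axis label says) in samd7-/- (red) and WT (blue) larvae; circles, squares and triangles are larvae 1, 2 and 3 of a genotype, which are not paired, and the bar beside them is the mean ± SD (n = 3). The genotypes overlap in the alpha, beta and other gamma panels, and in the gamma M panel all 3 samd7-/- larvae, at 1322830 to 1737010, lie below the WT larvae at 1915761 to 2615739.

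While the total differed from larva to larva, the balance between the groups differed little between genotypes. Beta crystallins took 51.1 ± 1.44% of crystallin reads in samd7-/- larvae and 50.8 ± 3.86% in WT larvae. Gamma M took 44.2 ± 1.80% in samd7-/- larvae and 44.6 ± 3.94% in WT larvae. Other gamma crystallins took 4.66 ± 0.42% in samd7-/- larvae and 4.59 ± 0.26% in WT larvae, and alpha crystallins 0.0147 ± 0.0018% in samd7-/- larvae and 0.0137 ± 0.0022% in WT larvae (SD, n = 3 each). All 4 shares overlapped between the genotypes (exact permutation p = 0.5 to 1, adjusted p = 1). The log2 ratio of gamma M to beta reads was −0.21, −0.31 and −0.11 in samd7-/- larvae, against 0.09, −0.31 and −0.34 in WT larvae. The first WT larva stood apart here: gamma M took 49.2% of its crystallin reads, where the other WT larvae had 42.7 and 42.0%.

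Gene by gene, the crystallins leaned one way without any of them passing the limma threshold. Of the 53 genes, 46 passed the filter on low values: 2 alpha, 10 beta, 29 gamma M and 5 other gamma. All 46 had a log2 fold change below 0, where 49.9% of all tested genes did. Their median was −0.56, a fold of 0.677, and the median of all tested genes was 0.00. None was called lower at an adjusted p under 0.05 (limma), where 0.259% of all tested genes were called lower, and none was called higher, where 0.0418% were. At an unadjusted p under 0.05, 29 of the 46 were lower, against 3.25% of all tested genes, and 0 were higher. In 23 of them all samd7-/- larvae lay below all WT larvae, against 6.39% of all tested genes. These genes are not independent readings, since their levels moved together from larva to larva.

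The other count models differed in how many they called. DESeq2 on the recovered reads tested 50 of the members and called 4 lower, where 0.498% of all genes it tested were called lower. These were crygm2a (DESeq2 adjusted p = 4.5e-06), crygm7 (0.000537), crygm2d16 (0.0311) and cryba2b (0.0456). The authors' deposited table, from which those reads were recovered, holds the same 4, so it is not a second test of them. edgeR called none of the 46 lower, where 0.251% of all tested genes were. It had 33 of the 46 lower at an unadjusted p under 0.05, and the share of all genes at that p is not given here. The name crygm2d16 enters here only because DESeq2 called it, after its values were seen.

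**Figure D2:**
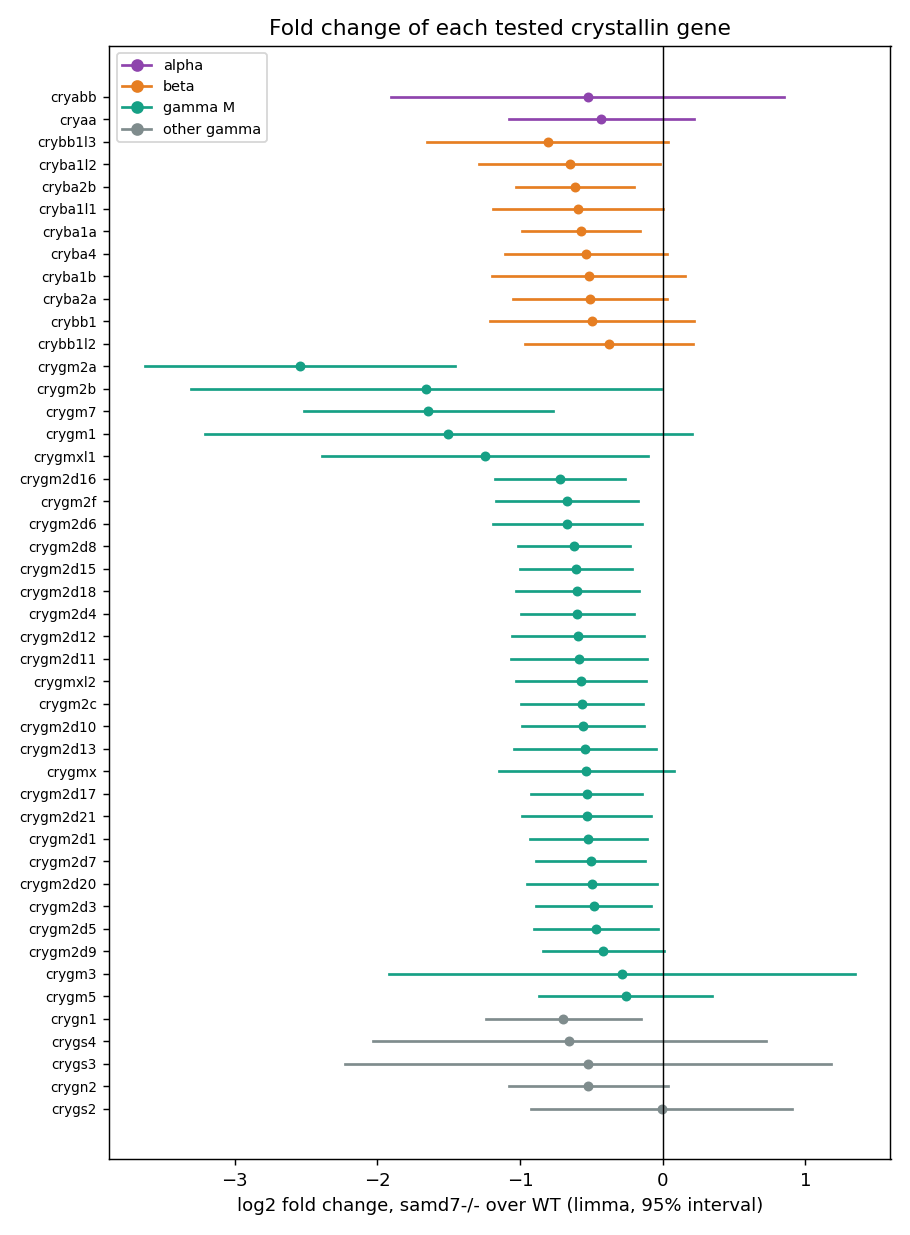
Log2 fold change of each of the 46 tested crystallin genes, samd7-/- over WT (horizontal axis), with its 95% interval from limma, coloured by group. Every point lies left of 0, most between −0.72 and −0.38, with 5 gamma M genes furthest left, crygm2a at −2.54 and crygm1, crygm2b, crygm7 and crygmxl1 between −1.66 and −1.25.

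The 7 genes below the filter were at or near the floor of detection and did not lean the same way. crygm2d2, listed among the crygm2d copies, had 0 reads in all 6 libraries. The gamma S gene crygs1 had 14, 3 and 6 reads in samd7-/- larvae, against 13, 0 and 8 in WT larvae. crybb2, a beta B crystallin, had 4, 3 and 5 reads in samd7-/- larvae, against 2, 22 and 16 in WT larvae. cryaba, crybb3, crygm4 and crygm6 had at most 10 reads in any library.

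Alpha crystallins were the least abundant group, and only 1 of the 3 genes was well counted. cryaa, which encodes alpha A-crystallin, had 512, 549 and 386 normalized counts in samd7-/- larvae, against 432, 971 and 633 in WT larvae. The genotypes overlapped, with a log2 fold change of −0.43 (SE 0.28, limma adjusted p = 0.827). It was −0.13 without the second WT larva, −0.28 without the third samd7-/- larva and −0.72 without the first WT larva. Zebrafish carry a pair of genes for alpha B-crystallin, a chaperone also made outside the lens in vertebrates. Of these, cryabb had 18.7, 5.06 and 8.80 normalized counts in samd7-/- larvae, against 19.1, 8.89 and 16.5 in WT larvae, which overlapped (log2 −0.53, SE 0.60, limma adjusted p = 0.890). cryaba was seen in 1 read in each of the WT larvae 2 and 3 and in none of the mutants, where 0 reads allow up to 3 reads, or 1.29e-05% of a library. The small heat shock protein genes outside the crystallins, from hspb1 to hspb15, gave 0 calls among 6 tested. All 6 had a log2 fold change below 0, where 49.9% of all tested genes did, and their median was −0.25.

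Among the beta crystallins, the 10 tested genes lay in a narrow band of log2 fold changes, −0.81 to −0.38, with a median of −0.55. Acidic beta A crystallins come from the cryba genes and basic beta B crystallins from the crybb genes. The most abundant crystallin of all by reads was crybb1, which took 15.3% of crystallin reads on average. It had 482426, 654323 and 436442 normalized counts in samd7-/- larvae, against 492775, 1029420 and 761181 in WT larvae. The second samd7-/- larva exceeded the first WT larva, and the log2 fold change of −0.50 (SE 0.31) was not called (limma adjusted p = 0.820). Without the second WT larva it was −0.25, and without the first −0.78. A further 3 beta genes followed it in reads. cryba1b had 357179, 471653 and 299885 in samd7-/- larvae, against 368147, 719464 and 560065 in WT larvae. cryba1l1 had 252084, 345577 and 241164 in samd7-/- larvae, against 305835, 529213 and 447321 in WT larvae. cryba4 had 230231, 301659 and 184302 in samd7-/- larvae, against 271994, 418990 and 342209 in WT larvae. In each of these 3 the same pair of larvae crossed, and the log2 fold changes were −0.52, −0.59 and −0.54. Without the second WT larva that of cryba1b was −0.30, and without the first −0.78.

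In 2 of the 10 tested beta genes all samd7-/- larvae lay below all WT larvae, against 6.39% of all tested genes. Both encode acidic beta A crystallins, as do 7 of the 10 tested. cryba2b had 120197, 151931 and 113482 normalized counts in samd7-/- larvae, against 176603, 223112 and 188904 in WT larvae. Its log2 fold change was −0.61 (SE 0.18, limma adjusted p = 0.613), and DESeq2 put it just inside its threshold. cryba1a, a much less sequenced gene, had 1161, 1279 and 1012 in samd7-/- larvae, against 1332, 2095 and 1778 in WT larvae (log2 −0.57, SE 0.18, limma adjusted p = 0.648). cryba1l2 had 4841, 5694 and 3308 in samd7-/- larvae, against 4701, 8736 and 8611 in WT larvae, with overlap and a log2 fold change of −0.65 (SE 0.28).

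**Figure D3:**
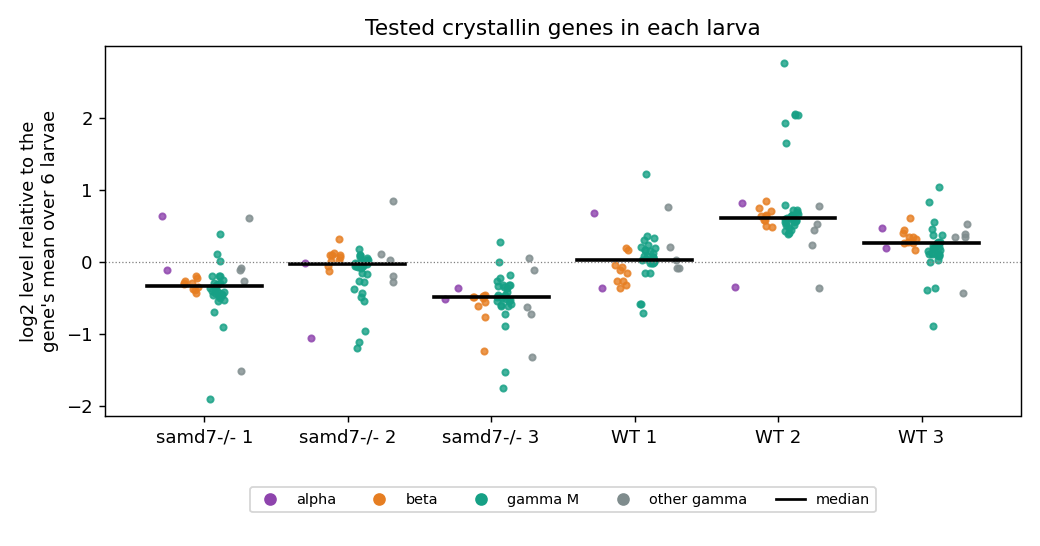
Level of each of the 46 tested crystallin genes in each larva, as the log2 difference from that gene's mean over the 6 larvae (vertical axis), with the median of the genes as a black bar. The medians are −0.33, −0.03 and −0.49 in the samd7-/- larvae and 0.02, 0.60 and 0.25 in the WT larvae; the second samd7-/- larva and the first WT larva lie nearly level, while larvae of 1 genotype lie further apart.

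The larvae ranked alike for most crystallins. The second WT larva had the highest level of all 6 for 43 of the 46 genes. The lowest was the third samd7-/- larva for 29 genes and the first for 11. Within the mutants the second larva was highest for 33 genes, and it exceeded the first WT larva for 16. The plot of levels by larva shows this as a shift of the whole cloud of genes in each larva, with most beta and gamma M points moving together. The sparsely counted cryabb, crygs2, crygs3 and crygs4 did not follow it. Some better counted genes followed it only in part: the lowest larva was the third WT larva in crygm3 and the second samd7-/- larva in crygm5. Without the second WT larva, 13 of the 46 fold changes were smaller by over 1.5 times, 3 of which turned above 0.

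The gamma M crystallins held the genes that differed most, and these were among the less abundant ones. Of the 29 tested, 24 were lower at an unadjusted p under 0.05, against 3.25% of all tested genes. In 20 all samd7-/- larvae lay below all WT larvae, against 6.39% of all tested genes. The crygm2d copies, described below, made up 17 of the 24 and 14 of the 20. For the 29 the median log2 fold change was −0.57, and the range ran from −2.54 to −0.26. crygm2a had 34.4, 101 and 45.0 normalized counts in samd7-/- larvae, against 308, 548 and 193 in WT larvae. All mutants lay well below all WT larvae, with a log2 fold change of −2.54 (SE 0.47, 95% interval −3.63 to −1.45), the smallest limma adjusted p of any crystallin (0.139). crygm7 had 88.5, 84.9 and 110 in samd7-/- larvae, against 164, 523 and 297 in WT larvae. The genotypes did not overlap in crygm7 either, and its log2 fold change was −1.64 (SE 0.38, limma adjusted p = 0.351).

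The abundant gamma M genes were the crygm2d copies, near-identical genes in tandem whose reads may have been split among them in counting. crygm2d13 had 178663, 225323 and 171049 normalized counts in samd7-/- larvae, against 227089, 353845 and 266270 in WT larvae. crygm2d1 had 137118, 181762 and 157776 in samd7-/- larvae, against 233964, 247618 and 201170 in WT larvae. In both the mutants lay below all WT larvae, at log2 −0.55 (SE 0.22) and −0.52 (SE 0.18). For crygm2d13 the margin was narrow, with the second samd7-/- larva at 225323 and the first WT larva at 227089. crygm2d10 had 136810, 176062 and 142568 in samd7-/- larvae, against 202844, 265166 and 204740 in WT larvae. crygm2d12 had 118645, 144975 and 108065 in samd7-/- larvae, against 154337, 230402 and 180514 in WT larvae. Neither of these overlapped between genotypes, and their log2 fold changes were −0.56 (SE 0.19) and −0.60 (SE 0.20). The copy with the third smallest p among the gamma M genes, crygm2d8, had 34077, 44020 and 32158 in samd7-/- larvae, against 50518, 66637 and 52224 in WT larvae (log2 −0.62, SE 0.17, limma adjusted p = 0.602). With the copies summed to 1 gene, 12 of 29 tested crystallins were lower at an unadjusted p under 0.05, against 3.25% of all genes in the main fit. None was called, where 31 of 11942 tested genes were called lower.

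The smallest difference among the well-counted gamma M genes was in crygm5. It had 2805, 1849 and 2610 normalized counts in samd7-/- larvae, against 2733, 4188 and 2027 in WT larvae. The genotypes overlapped, though the second WT larva lay above all samd7-/- larvae (log2 −0.26, SE 0.26, limma adjusted p = 0.875). Without the second WT larva the log2 fold change of crygm5 was 0.02.

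Of the 53 genes, 31 lie together on chromosome 9, by the gene order of RefSeq's table for assembly GRCz12tu, which names all 53. That assembly is not the build of the reads, so it is used for order only. The span holds 39 gene models, 3 of them other crystallin symbols and 3 protein-coding genes that are not crystallins. In order, crygm7, crygm6, crygm1, crygm2c, crygmxl1, crygm2b and crygm2a come first, then the 19 crygm2d copies, then crygm2f, crygm5, crygm3, crygs4 and crygs3. This division into stretches was drawn after the values were seen, so no test was made of it.

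The stretch before the crygm2d copies held the 5 lowest fold changes of all crystallins. Its 6 tested genes had a median log2 fold change of −1.57, with a range of −2.54 to −0.56. Without the second WT larva the median was −0.82, and the stretch then held 3 of the 5 lowest fold changes. The 18 tested crygm2d copies had a median of −0.55 and a tight range of −0.72 to −0.42, and the 5 genes after them a median of −0.52. Read depth differed between the stretches as well, with mean normalized counts of 135 to 2902 in the first and 34123 to 237040 in the crygm2d copies.

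**Figure D4:**
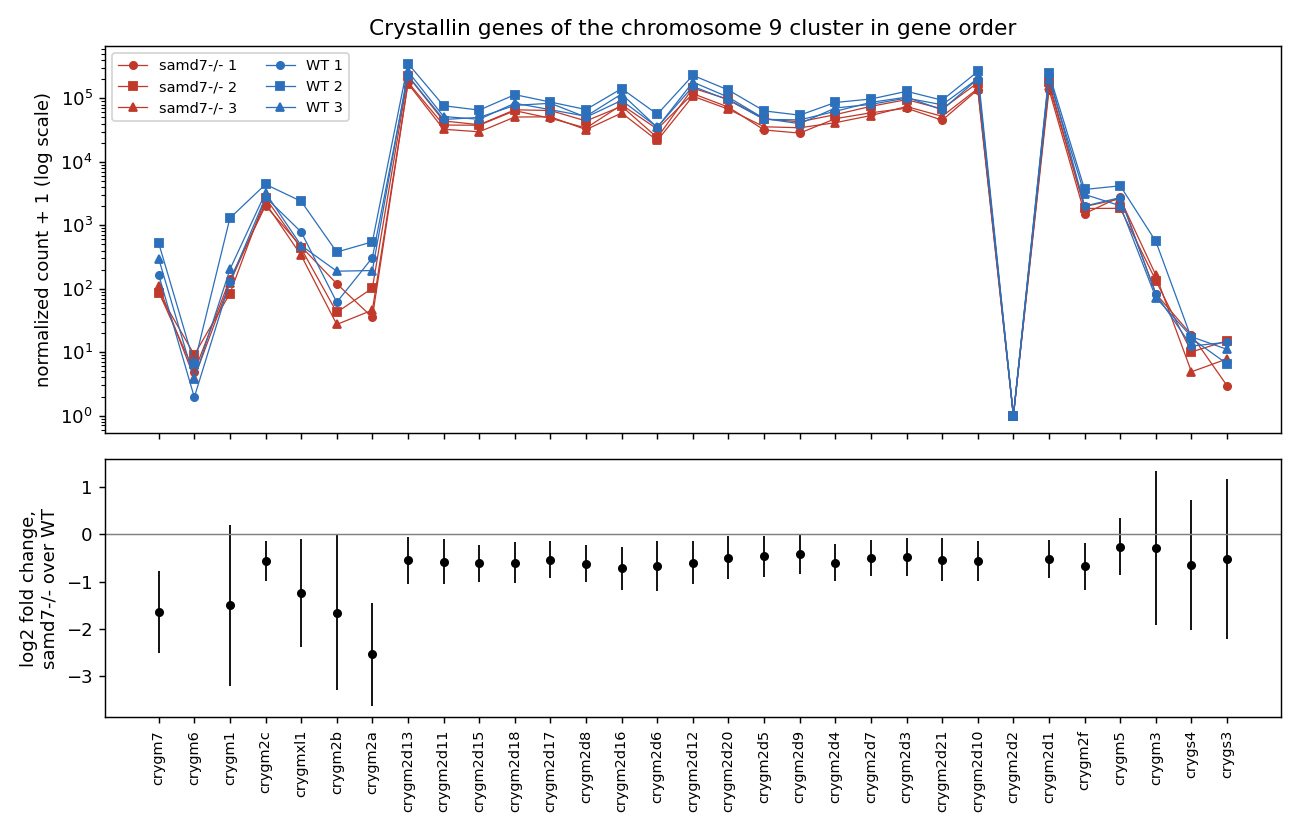
The 31 crystallin genes of the chromosome 9 cluster in gene order; above, the normalized count + 1 in each samd7-/- (red) and WT (blue) larva on a log scale, not corrected for transcript length; below, the log2 fold change, samd7-/- over WT, with its 95% interval for the 29 tested genes. The crygm2d copies lie level at −0.72 to −0.42, crygm2a drops to −2.54, and the second WT larva (blue squares) stands above the others at crygm1, crygmxl1, crygm2b and crygm3.

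A single WT larva set the size of several of these differences. The following genes were chosen after their values were seen. crygm1 had 140, 82.9 and 124 normalized counts in samd7-/- larvae, against 127, 1297 and 201 in WT larvae. crygmxl1 had 462, 431 and 335 in samd7-/- larvae, against 785, 2388 and 479 in WT larvae. crygm2b had 119, 41.5 and 26.4 in samd7-/- larvae, against 60.2, 378 and 188 in WT larvae. The second WT larva was the highest in all 3, far above the other 5 in crygm1 and crygmxl1 and less so in crygm2b. Without that larva the log2 fold change of crygm1 was −0.50 in place of −1.50, and that of crygmxl1 −0.59 in place of −1.25. For crygm2b it was −1.05 in place of −1.66. Other larvae moved crygm2b as well: it was at −2.37 without the first WT larva, −2.26 without the first samd7-/- larva and −1.20 without the third. crygm3, at the other end of the cluster, had 82.6, 133 and 162 in samd7-/- larvae, against 81.3, 555 and 71.6 in WT larvae. Its log2 fold change turned to 0.66 without the second WT larva. crygm2a and crygm7 kept log2 fold changes of −2.15 and −1.23 without it.

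Among the other gamma crystallins, the gamma N genes were well counted and the gamma S genes were not. Gamma N crystallins are held to be an evolutionary link between the beta and gamma families, and gamma S is a conserved lens crystallin of vertebrates. crygn2 had 152858, 197591 and 118062 normalized counts in samd7-/- larvae, against 172688, 263372 and 232161 in WT larvae. The genotypes overlapped at 1 pair of larvae, with a log2 fold change of −0.52 (SE 0.24, limma adjusted p = 0.781). crygn1 had 2706, 2567 and 1778 in samd7-/- larvae, against 2775, 5049 and 3751 in WT larvae. All its mutants lay below all WT larvae, the highest of them by a narrow margin (log2 −0.70, SE 0.24, limma adjusted p = 0.663). By the RefSeq table used for gene order, crygn1 is the only crystallin on chromosome 2, the chromosome of samd7. The part of linkage to samd7 in its difference was not tested. crygs4 had 17.7, 9.10 and 3.91 in samd7-/- larvae, against 11.5, 15.6 and 16.5 in WT larvae. crygs2 had 17.7, 19.2 and 19.6 in samd7-/- larvae, against 22.0, 22.2 and 13.8 in WT larvae. Both overlapped, with log2 fold changes of −0.65 (SE 0.60) and −0.01 (SE 0.40), and at so few reads a difference of the size seen in the other crystallins was not detectable.

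Other lens transcripts also lay lower in the mutants, without passing the test. A list of 26 lens genes outside the crystallins had 21 genes in the table and 20 tested. Of these, 19 had a log2 fold change below 0, where 49.9% of all tested genes did, and 1, mafa, above 0. None was called by limma, where 0.259% of all tested genes were called lower. At an unadjusted p under 0.05, 7 were lower, against 3.25% of all tested genes, and the median was −0.47. The most read, lim2.4, a lens fibre membrane protein, had 30241, 42595 and 25837 normalized counts in samd7-/- larvae, against 44602, 61412 and 52569 in WT larvae (log2 −0.70, SE 0.21, limma adjusted p = 0.613). mipb, which encodes a lens fibre aquaporin, had 18559, 26857 and 12510 in samd7-/- larvae, against 16931, 28584 and 28482 in WT larvae. The list took 0.457, 0.609 and 0.370% of reads in samd7-/- larvae, against 0.491, 0.739 and 0.731% in WT larvae, with the same overlap of the second mutant and the first WT larva as in the crystallins. Transcription factors of lens epithelium and fibres, which the retina partly shares, gave 0 calls among 11 tested and a median of −0.07. Of these, 6 were below 0 and 5 above. foxe3, a regulator of the lens epithelium, had 395, 540 and 263 in samd7-/- larvae, against 416, 785 and 700 in WT larvae. Its fold change was the lowest of the list (log2 −0.67, SE 0.31, limma adjusted p = 0.781). six3b, the most read of the list, had 6533, 6894 and 7679 in samd7-/- larvae, against 6970, 6278 and 7216 in WT larvae. pax6a, made in both lens and retina, averaged 5340 ± 132 in samd7-/- larvae and 4761 ± 370 in WT larvae (SD, n = 3 each).

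Set against these other lens genes, the crystallins did not differ between the genotypes beyond the spread of the larvae. There were 29.9, 28.6 and 34.2 crystallin reads for each read of the non-crystallin lens list in samd7-/- larvae, against 31.1, 31.9 and 27.7 in WT larvae. The means were 30.9 ± 2.96 and 30.3 ± 2.25 (SD, n = 3 each), at a ratio of 1.02, and the ranges overlapped (exact permutation p = 0.9). When every library was scaled to its summed non-crystallin lens genes, the median log2 fold change of the 46 crystallins was 0.00, with 21 below 0 and 25 above, while the median of all genes moved to 0.57. On that scale crygm2a was at −1.97 and crygm7 at −1.07. limma gave this fit an unlimited prior, so its p-values rest on a spread shared by genes of like level rather than on a gene's own larvae, and they cannot be set beside those above. By them crygm2a was the only member called lower, where 0.25% of all tested genes were, and 4 members were lower at an unadjusted p under 0.05, where 0.434% were.

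**Figure D5:**
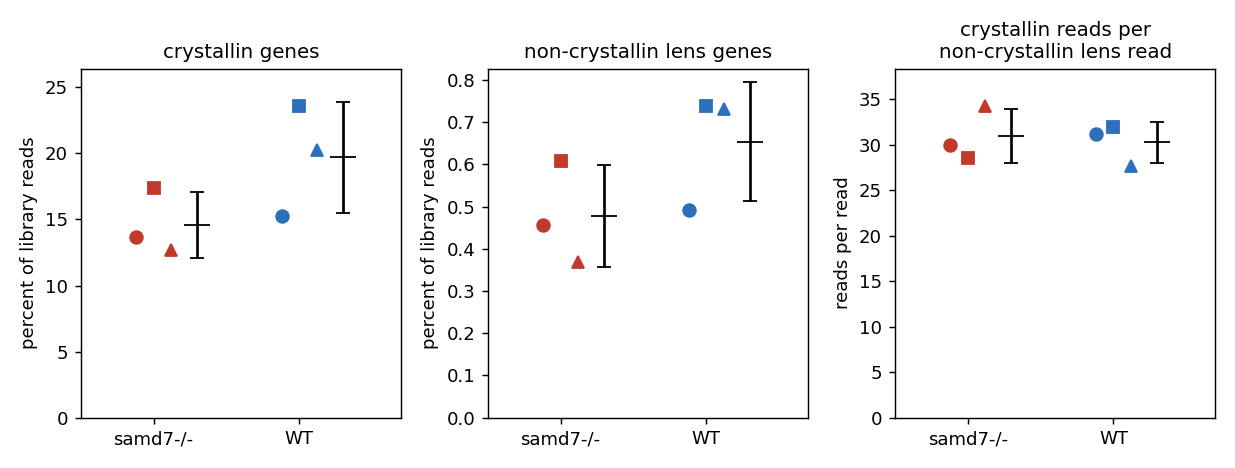
Reads of the crystallin genes and of the non-crystallin lens list as percent of each library (left and middle), and crystallin reads per read of that list (right), in samd7-/- (red) and WT (blue) larvae; circles, squares and triangles are larvae 1, 2 and 3, unpaired, and the bar is the mean ± SD (n = 3). Both shares order the 6 larvae in the same way, and the ratio lies between 27.7 and 34.2 in all 6 larvae with the genotypes intermixed.

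Of the lists for other eye tissues, the cone, rod and inner retina lists did not overlap between genotypes in their share of the libraries. Cone genes took 12.1 to 14.0% of reads in samd7-/- larvae and 8.57 to 12.0% in WT larvae, while limma called 3 of 12 tested cone genes lower (opn1mw1, opn1mw2 and arr3a) and 1 higher (arr3b). Rod genes took 0.187 to 0.440% in samd7-/- larvae and 1.342 to 1.691% in WT larvae, and limma called 9 of 11 tested rod genes lower. Inner retina genes took 0.269 to 0.302% in samd7-/- larvae and 0.228 to 0.256% in WT larvae. Of 15 tested, 13 had a log2 fold change above 0 and 2 below, and limma called none. The shares of the next 3 lists overlapped. Pigment epithelium genes ranged over 0.279 to 0.967% in samd7-/- larvae and 0.330 to 0.898% in WT larvae, and 0 of 10 tested were called. Cornea and skin genes took 1.18 to 1.41% in samd7-/- larvae and 1.23 to 1.42% in WT larvae, and muscle genes 0.105 to 0.288% in samd7-/- larvae and 0.133 to 0.366% in WT larvae, also without a call. The part of these shares in the crystallin difference was not tested. Fold changes in the same 3 lists lay mostly below 0, where 49.9% of all tested genes did. Of 10 tested pigment epithelium genes, 8 were below 0 and 2 above, with a median log2 fold change of −0.26. For cornea and skin genes it was 13 below and 2 above (median −0.24), and for muscle genes 8 below and 2 above (median −0.39).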

How the data were processed

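RNA came from the eyes of single 5-dpf larvae, amplified with the SMARTer Ultra Low kit, per the labels' protocols. The kit does not mark strand, so reads of overlapping genes are not separated. Per the submitters' processing notes, the genome build was danRer10 and the tools included STAR 2.7.2b, Trim Galore 0.6.1, DESeq2 1.34.0 (R 4.1.3) and HTSeq 0.9.1. The sources used here do not name the annotation. The deposited signal per gene and library is a normalized count. Divided by what 1 read is worth in its library, 100% of values in all 6 libraries were whole within the margin allowed. That margin was 0.001 at low counts and widened in proportion to the reads at higher counts. For the most read crystallins it was too wide to be a check. For the second samd7-/- library the value of 1 read is 1.01, so its reads rest on the multiples alone. The table also holds the authors' log2 fold changes and adjusted p-values, used as an alternative; DESeq2 1.42.0 on the recovered reads came within 0.001 of that fold change for 13843 of 13846 genes. Of 14781 genes, 935 were at 0 in all libraries.

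The main test was limma 3.58.1 (limma-trend, R 4.3.3) on log2(value + 1), 2 groups without covariates, 2-sided. It took genes reaching 10 in 3 or more libraries, with Benjamini-Hochberg adjustment over all 11959 tested genes and a threshold of 0.05. A check on simulated data used independent genes and larger changes than most crystallins showed. It therefore does not say how well the test finds differences of the size seen here. limma's moderation gave 8.29 total degrees of freedom in the main fit, 4 of them from the larvae. Sums, shares and ratios were compared with exact two-sided permutation tests. edgeR 4.0.16 (quasi-likelihood) and DESeq2 were run on the recovered reads. Reads carry no molecular identifiers, so floors (3 reads) reflect counting error alone. Within a genotype, libraries differed by more than sampling noise (chi-square per degree of freedom 44.3 to 114).

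The members, gene lists, tests and alternatives were chosen with earlier results of these data known. Values per larva are given for all alpha crystallins, for the 4 most abundant and the 3 with the smallest p of each other group, for the largest differences with a mean of at least 50, and for 1 or 2 abundant genes of the lists most related to the lens; other genes were named after their values were seen. Lists covered non-crystallin lens genes, lens transcription factors, small heat shock proteins, rods, cones, cornea and skin, pigment epithelium, Muller glia, inner retina, dividing cells, muscle and blood, and some share members. Alternatives were other pseudocounts, filters, scalings, tools, a replicate block, each library left out and the crygm2d copies summed.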

Additional observations from a re-analysis of the deposited data

How the results depend on the processing

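With 0.5 or 10 as pseudocount, no filter, a minimum of 50, TMM factors, robust moderation or array weights, 0 crystallins were called and the median of the tested members stayed between −0.71 and −0.55. DESeq2 and the authors' deposited table, which rest on the same reads and the same tool, each called 4 lower. Quantile normalization gave a median of −0.29 (gamma M −0.28) with 10 lower at an unadjusted p under 0.05, and a pseudocount of 10 gave the other gamma group a median of −0.33. Summing the crygm2d copies left 12 of 29 at that p. For these unadjusted counts, and those of the left-out and block fits below, no share of all genes is given.

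Scaling to the non-crystallin lens genes called 1 lower and left 4 at an unadjusted p, both from a fit with an unlimited prior that is not comparable with the others (total degrees of freedom 6.55 to 8.65); the medians became 0.00297 for all members, 0.0743 for alpha, 0.0200 for beta, 0.00218 for gamma M and −0.0457 for other gamma. The sign turned for 25 of the 46 tested members. Among the members named by rule, the alpha and beta ones were cryaa (0.14), cryabb (0.00376), cryba1a (0.000859), cryba1b (0.0570), cryba4 (0.0392) and crybb1 (0.0794). The gamma ones named by rule were crygm2d1 (0.0525), crygm2d10 (0.0146), crygm2d13 (0.0298), crygm5 (0.32), crygn2 (0.0529) and crygs2 (0.54). By construction this scale removes a difference that all lens genes share. crygs2 was also at 0.0213 when scaled to reads outside the crystallins.

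Leaving out each larva in turn, the count at an unadjusted p ran from 10 (without samd7-/- 3) to 37 (without WT 1). It was 12 without samd7-/- 1 or WT 2. In each of these fits 0 crystallins were called, where 4 to 23 of all tested genes were called lower. The median ran from −0.71 (without WT 1) to −0.43 (without WT 2), that of the other gamma group from −0.75 to −0.34, crygs2 from −0.22 to 0.10 and crygm5 from −0.51 to 0.0179. cryabb was at −0.13 without samd7-/- 2 and −0.83 without WT 2, crygs4 at −1.12 without samd7-/- 1 and −0.16 without samd7-/- 3, and without samd7-/- 3 cryba1l2 was at −0.43 and crygn2 at −0.34.

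With the replicate number as a block, 1 of 46 crystallins was called lower, crygm2a (limma adjusted p = 0.0175), where 29 of 11959 tested genes were. At an unadjusted p under 0.05, 35 of the crystallins were lower. The deviations of same-numbered larvae correlated at 0.03, 0.18 and −0.002, so the numbers were not taken to pair them. Depth limits the gamma S genes and cryabb, at under 25 reads a library.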

Other observations

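In the inner retina list the median log2 fold change was 0.18 over 15 tested genes. Of the lists not described above, Muller glia genes had a median of 0.07 over 9, dividing cell genes 0.20 over 12 and blood genes 0.16 over 3. limma called none of these genes in either direction. glula, the glutamine synthetase of Muller glia, and pcna, a replication clamp, were the most read of their lists. glula had 77343, 79563 and 91988 normalized counts in samd7-/- larvae, against 81134, 77180 and 80283 in WT larvae, and pcna had 8284, 11452 and 9781 in samd7-/- larvae, against 10368, 9696 and 7220 in WT larvae. Both overlapped between the genotypes.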
